A study of Mus musculus with 13 samples.

Results

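The regions described here are 478 Myf6 binding sites that lie close together on the mouse genome in 110 groups of 4 or more neighbours. They were mapped by CUT&RUN, which brings a nuclease to antibody-bound chromatin, cuts there and sequences the released fragments. The peak lists of 12 libraries were merged on chromosomes 1 to 19, and a merged region was taken as a site if both HA lists of at least 1 induced treatment had a peak there and none of 8 control lists did. Sites separated by gaps of up to 12500 bp were joined into runs, and the sites in runs of 4 or more were kept. Of 70492 merged regions, 19696 (27.9%) were Myf6 sites, and of those sites 478 (2.43%) were grouped. The sites were thus chosen by the presence of HA peaks and the absence of control peaks, so their number, spacing and peak values are a description and carry no test.

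The cells were mouse embryonic fibroblasts of a Pax7-CreERT2, Rosa26-LSL-tdTomato and CAG-rtTA3 background, which all groups shared. They carried a lentiviral Myf6 with an HA tag that doxycycline switches on, so every site is one of an overexpressed, tagged protein. All were held for 24 h in the culture medium that the labels call iMPC medium. The +Myf6+F/R/C cells received 2 µg/mL doxycycline with 5 µM Forskolin, 5 µM RepSox and 3 µM CHIR99021, the +Myf6 cells received doxycycline alone, and the remaining cells received neither doxycycline nor compounds. Each treatment had 2 anti-HA and 2 control IgG libraries. A single +Myf6+F/R/C library was made with an antibody against H3K27me3.

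Myf6, also called MRF4, is a basic helix-loop-helix factor of the myogenic family, whose members bind short E-box motifs and can turn fibroblasts towards muscle. Regulatory regions of a single gene are often spread over many kilobases, so several sites of a factor can lie near each other. H3K27me3 is the histone mark left by Polycomb repressive complex 2, and it often covers broad stretches around silent developmental genes. Of the compounds, CHIR99021 blocks the kinase GSK3, RepSox blocks signalling through the type I TGF-β receptor, and Forskolin stimulates adenylyl cyclase.

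The lists differed in depth and length. Read from the background of each list, mean depth per 10 kb was 61.9 and 40.9 fragments for HA in +Myf6+F/R/C cells (replicates 1 and 2), 42.4 and 30.6 for HA in +Myf6 cells, and 30.6 and 23.7 for HA without doxycycline. The 6 IgG libraries had 8.25 to 22.7 and the H3K27me3 library 54.3 fragments. On chromosomes 1 to 19 the induced HA lists held 28012 to 37811 peaks, the uninduced HA lists 2130 and 4138, the IgG lists 410 to 1648, and the H3K27me3 list 32130. In all 12 HA and IgG lists the longest run of peaks lay at the start of chromosome 9 (chr9:3000026-3038268, GRCm39), with 21 to 37 peaks. None of the 478 sites lay there, since the control lists had peaks at it.

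Most Myf6 sites stood alone, and long runs were few. Single sites numbered 13429, runs of 2 numbered 2245 and runs of 3 numbered 433. Above the minimum there were 80 runs of 4 sites, 24 of 5, 4 of 6 and 2 of 7, and no run was longer. The median distance from any Myf6 site to its nearest other site was 22057 bp, and 6267 sites (31.8%) had another site within 12500 bp. Just inside the minimum of 4, sites in the 80 runs of 4 had a median width of 545 bp and a median fold of 4.90 in +Myf6+F/R/C HA replicate 1. Just outside it, sites in the 433 runs of 3 had a median width of 518 bp and a median fold of 5.03 in the same library.

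**Figure D1:**
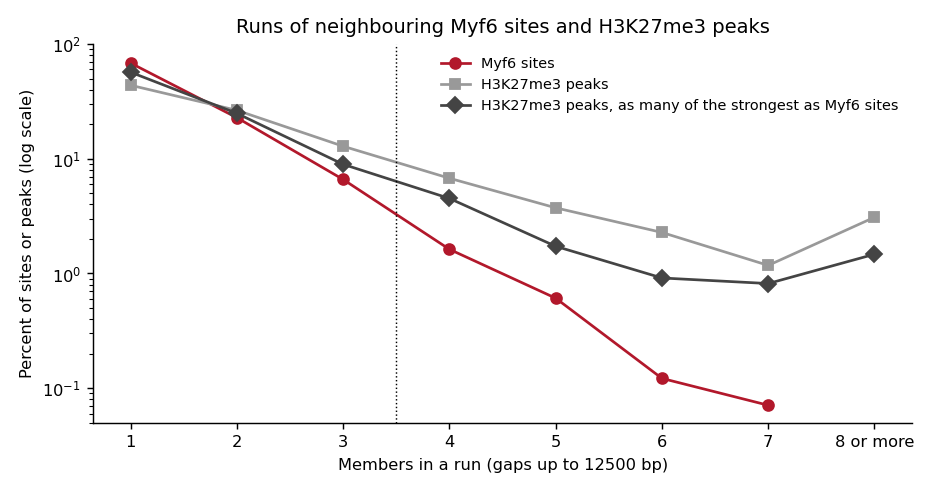
Percent of Myf6 sites (circles), of H3K27me3 peaks (squares) and of the strongest H3K27me3 peaks equal in number to the Myf6 sites (diamonds) in runs of each size, on a log scale, with gaps of up to 12500 bp. The dotted line marks the minimum of 4; Myf6 runs end at 7 members, while 3.09% of H3K27me3 peaks lie in runs of 8 or more.

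The groups were loose strings of narrow sites and not continuous blocks. A group spanned a median of 22844 bp, from 8467 bp for 4 sites at chr8:126068378-126076844 to 50095 bp for 7 sites at chr12:52865182-52915276. The 368 gaps within groups had a median of 6568.5 bp and ran from 10 to 12497 bp. Gaps under 1000 bp numbered 36 (9.78%), against 408 of 3111 (13.1%) in runs of 2 and 3. Whether such close neighbours are separate binding sites was not tested. The sites themselves had a median width of 552.5 bp (range 190 to 1620 bp), so that they covered 10.54% of the 2.62 Mb within group limits. The chosen gap limit mattered for many groups: 54 of the 110 held a gap over 10000 bp, and 9 held one over 12000 bp. A group's nearest further Myf6 site was a median of 27618.5 bp away, against 35242 bp for runs of 1 to 3, and for 9 groups it lay within 15000 bp, just beyond the limit.

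Groups were spread over all 19 autosomes, in uneven numbers. Chromosome 16 had 40 of its 773 sites in 10 groups (5.17%, interval 3.72 to 6.98%), and chromosome 11 had 48 of 1191 in 11 groups (4.03%, interval 2.99 to 5.31%). Chromosome 18 had 4 of 757 sites in a single group (0.528%, interval 0.144 to 1.35%). The share over all chromosomes was 2.43%. All intervals are exact Clopper-Pearson intervals of 95% and cover counting error only, which here understates the error because grouped sites come at least 4 at a time.

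The limits of the groups held 592 merged regions, of which 478 were the sites, 95 had peaks in induced HA lists without meeting the rule, and 19 in 16 groups had a peak in a control list. Of those 19, 4 also had one in every induced HA list. The +Myf6+F/R/C HA lists had 486 and 424 peaks inside the limits, the +Myf6 HA lists 410 and 406, and the HA lists without doxycycline 1 and 11. Each IgG list had between 0 and 3. As a share of each list's own peaks this was 1.29 and 1.35% for +Myf6+F/R/C HA, 1.46 and 1.17% for +Myf6 HA, 0.0469 and 0.266% for HA without doxycycline, and 0 to 0.270% for IgG. Low control counts follow in part from the rule, which admits no site with a control peak.

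The largest group by span, on chromosome 12 (chr12:52865182-52915276), held 7 sites, of which 3 belonged to both induced treatments, 2 only to +Myf6+F/R/C and 2 only to +Myf6. Such a site of a single treatment, called a site of that treatment alone in what follows, has a peak in both of its HA lists and in at most 1 of the other treatment, so the word alone does not mean that the other treatment had no signal. The peak values are the authors' fold enrichments over local background at the summit. The fifth site (chr12:52900752-52901593) had folds of 6.95 and 5.86 in +Myf6+F/R/C cells, against 5.70 and 6.44 in +Myf6 cells. At the first site (chr12:52865182-52866249) the folds were 4.61 and 5.05 in +Myf6+F/R/C cells and 5.14 and 7.94 in +Myf6 cells. The fold ranges of the 2 treatments overlapped at the fifth site and did not at the first, where the +Myf6 folds were higher. Summit pileups at the first site were alike, at 13 and 13 against 12 and 15 fragments. The pileups expected there from the local background were 2.03 and 1.77 against 1.53 and 1.01 fragments, in lists that differ in depth.

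The highest single fold in the chromosome 12 group came from a site that the rule assigns to +Myf6 alone. At chr12:52893757-52894445 the fold was 9.49 in +Myf6+F/R/C replicate 1 with no peak in replicate 2, against 7.52 and 5.83 in the +Myf6 libraries. Here a single missing peak in 1 library set the assignment. The sixth site (chr12:52904087-52904449), by contrast, had folds of 4.06 and 4.85 in the +Myf6 libraries and no peak in either +Myf6+F/R/C library.

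The other group of 7, on chromosome 6 (chr6:100140072-100173386), alternated between treatments along its whole length. Its 7 sites were assigned in turn to +Myf6+F/R/C alone (4 sites) and to +Myf6 alone (3 sites), and none was a site of both. The first site (chr6:100140072-100140446) had folds of 4.15 and 6.19 in +Myf6+F/R/C cells, against 3.60 in +Myf6 replicate 1 and no peak in replicate 2. The site at chr6:100155623-100156063 had no peak in +Myf6+F/R/C cells, against folds of 5.58 and 4.58 in +Myf6 cells. Of the 7 sites, 4 had a peak in 1 list of the other treatment, and the other 3 had none there.

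The 4 groups of 6 differed in how far the treatments shared sites. The group at chr5:102916477-102951803 had 4 of 6 sites in both treatments. Its first site (chr5:102916477-102917179) had folds of 7.29 and 6.92 in +Myf6+F/R/C cells, against 7.15 and 4.84 in +Myf6 cells. The group at chr9:58050604-58083780 also had 4 of 6 in both, and all 6 were +Myf6+F/R/C sites. Its site at chr9:58075992-58077085 had folds of 7.40 and 7.08 in +Myf6+F/R/C cells, against 7.58 and 6.95 in +Myf6 cells, so the fold ranges overlapped.

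The group at chr7:67912807-67944466 shared 2 of its 6 sites and the group at chr5:92634482-92654565 shared 1. The shared site of the last one (chr5:92641318-92642340) had folds of 5.47 and 5.85 in +Myf6+F/R/C cells, against 5.87 and 5.79 in +Myf6 cells, with summit pileups of 40 and 34 against 30 and 21 fragments. That group was the densest of the 6 largest, with 2.99 sites per 10 kb, against 1.39 in the group on chromosome 12. Of its other 5 sites, 4 were of +Myf6+F/R/C alone, with folds from 3.01 to 4.80 in the +Myf6+F/R/C libraries.

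**Figure D2:**
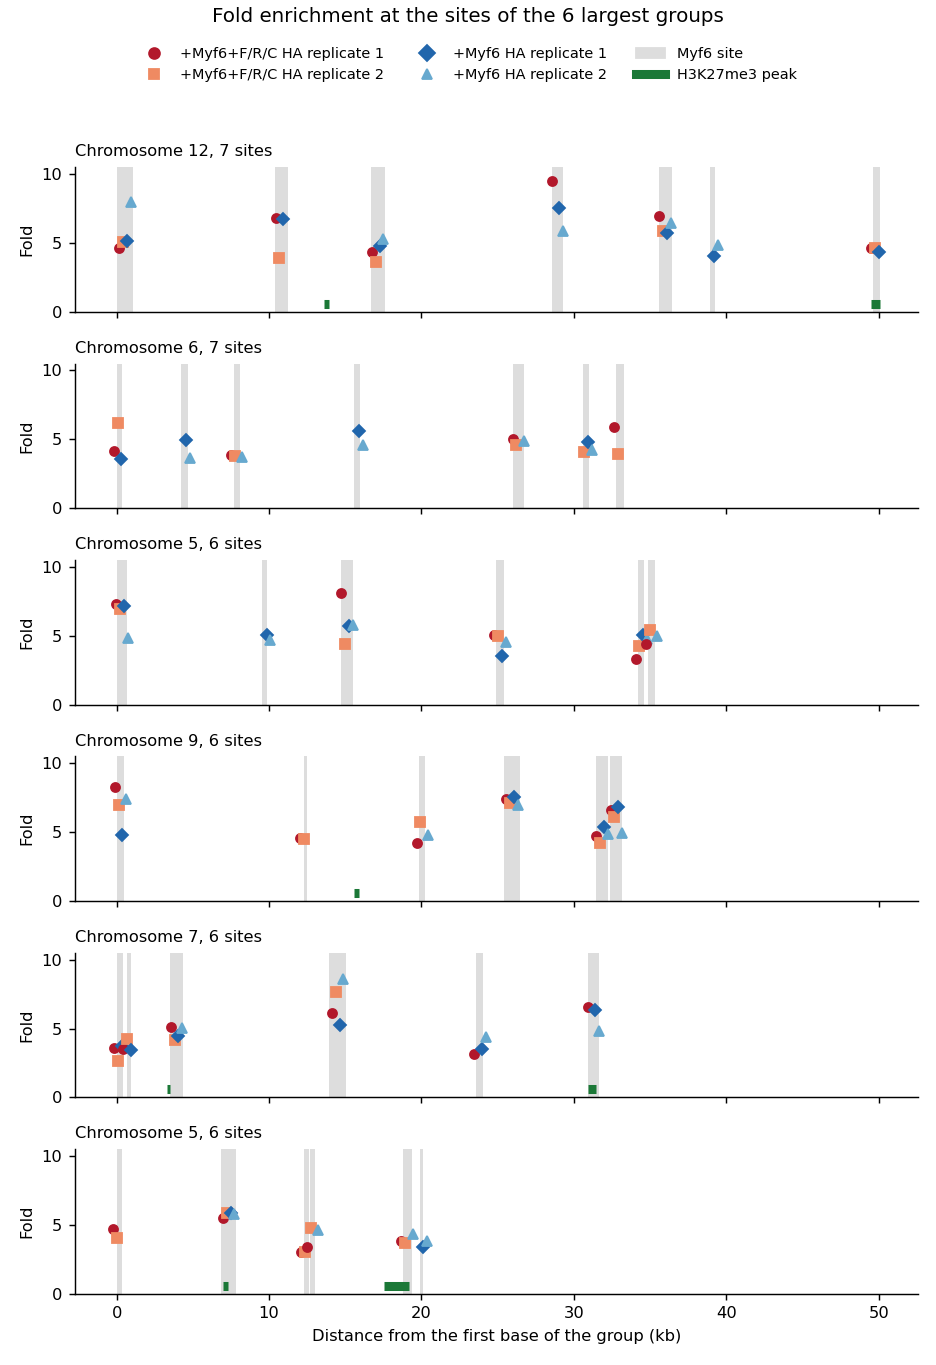
Fold enrichment (authors' values) at each site of the 6 largest groups, by distance in kb from the first base of the group, with the 4 induced HA libraries as separate symbols shifted slightly sideways, Myf6 sites in grey and H3K27me3 peaks as green bars. A library without a symbol at a site has no peak there; folds run from 2.66 to 9.49, and the chromosome 6 group and the upper chromosome 5 group hold no H3K27me3 peak.

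The next 4 groups in size had 5 sites each and spanned 35777 to 40498 bp. At chr7:132315998-132356495 all 5 were +Myf6+F/R/C sites and 3 were also +Myf6 sites, and at chr9:96298020-96333796 all 5 were +Myf6+F/R/C sites and 2 were shared. At chr19:41969648-42006678 all 5 were +Myf6 sites and 4 were shared. At chr6:71204206-71240186 there were 3 +Myf6+F/R/C and 4 +Myf6 sites, 2 of them shared. The last site of that group (chr6:71239350-71240186) was among the strongest of all grouped sites, with folds of 8.79 and 6.90 in +Myf6+F/R/C cells, against 10.0 and 9.38 in +Myf6 cells.

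Of the 7608 sites called in every induced HA list, 197 (2.59%) were grouped. Ranked by their mean place in those lists, 3 of the first 100 (3.0%) and 30 of the first 1000 (3.0%) were grouped, which is near that share. The best placed was the site chr13:34271929-34272790 of a group of 4, which came 12th of all. Its folds were 8.66 and 8.59 in +Myf6+F/R/C cells, against 8.40 and 10.6 in +Myf6 cells, and its summit pileups were 50 and 37 against 32 and 32 fragments.

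Grouped sites had taller summits and a higher local background, and lower folds, than the remaining sites. Runs of 3, outside the groups, went the same way against single sites. The median summit pileup was 18.5 fragments at grouped sites, against 15 at the rest, in +Myf6+F/R/C replicate 1, and 15 against 12 in replicate 2. It was 14 against 12 in +Myf6 replicate 1 and 11 against 10 in replicate 2. The median expected pileup from the local background was 2.79 against 1.79 and 2.30 against 1.39 fragments in the +Myf6+F/R/C libraries. In the +Myf6 libraries it was 2.03 against 1.24 and 1.38 against 0.918 fragments. The median fold was lower at grouped sites in all 4 libraries, at 4.92 against 5.46 and 4.77 against 5.28 in +Myf6+F/R/C cells, and at 4.97 against 5.38 and 5.02 against 5.44 in +Myf6 cells. In runs of 3 the median expected pileup was 2.46 and 1.84 fragments in the +Myf6+F/R/C libraries and 1.64 and 1.18 in the +Myf6 libraries. Their median summit pileups were 17 and 14, and 13 and 11 fragments, and their median folds 5.03 and 4.94, and 5.17 and 5.33. The local background of a site includes fragments of its near neighbours, and how much of these differences this makes was not tested.

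**Figure D3:**
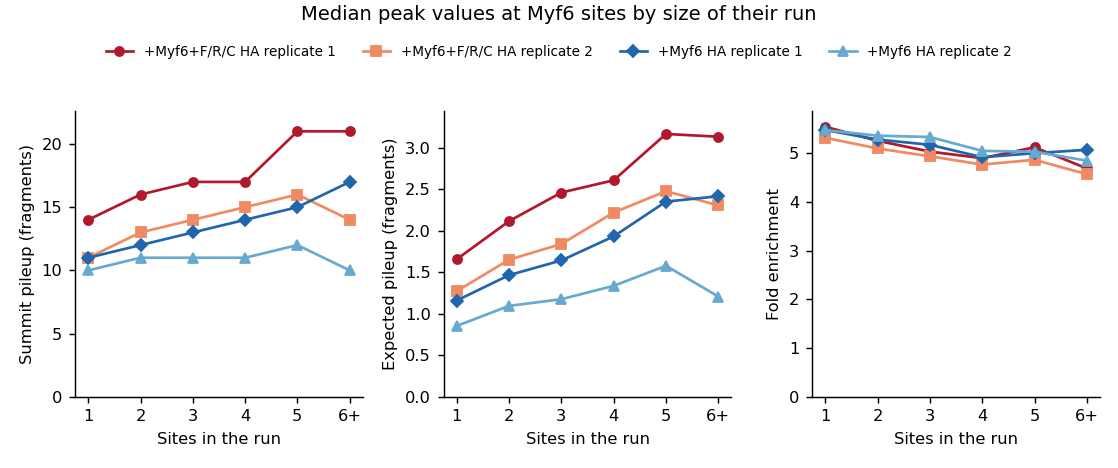
Median summit pileup in fragments, median expected pileup in fragments and median fold enrichment at Myf6 sites, by the number of sites in their run, with a line for each of the 4 induced HA libraries. Expected pileup is higher in runs of 4 than at single sites in every library (2.61 against 1.66 in +Myf6+F/R/C replicate 1), while fold is lower (4.90 against 5.54 in the same library). Runs of 3, outside the groups, lie between in that library, at 2.46 and 5.03.

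Sites of the same group differed moderately in fold. The highest fold in a group divided by the lowest had a median of 1.63 and 1.48 in the +Myf6+F/R/C libraries and of 1.50 and 1.47 in the +Myf6 libraries. Replicate summits at grouped sites lay a median of 65 bp apart in +Myf6+F/R/C cells and 92 bp apart in +Myf6 cells, against 78 and 84 bp at the remaining sites.

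The 2 induced treatments shared grouped sites about as often as other sites. Of the 478 grouped sites, 197 (41.2%, interval 36.8 to 45.8%) were sites of both treatments, against 38.6% of all Myf6 sites. Another 176 (36.8%, interval 32.5 to 41.3%) were of +Myf6+F/R/C alone, against 36.9% of all sites. The remaining 105 (22.0%, interval 18.3 to 26.0%) were of +Myf6 alone, against 24.5%. Each background share lies inside the interval of the grouped sites. Of the 176 sites of +Myf6+F/R/C alone, 114 (64.8%) had a peak in 1 of the +Myf6 HA lists. Of the 105 sites of +Myf6 alone, 66 (62.9%) had a peak in 1 of the +Myf6+F/R/C HA lists.

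Most groups mixed sites of both kinds. In 36 of 110 groups every site was a +Myf6+F/R/C site and in 15 every site was a +Myf6 site, and 4 groups are counted in both of these numbers because every site was shared. One of these 4, at chr13:99207890-99237254, had 5 sites. Its second site (chr13:99215535-99215980) had folds of 6.15 and 5.79 in +Myf6+F/R/C cells, against 6.47 and 6.65 in +Myf6 cells. In 13 groups (11.8%, interval 6.45 to 19.4%) no site was shared, where 38.6% of all Myf6 sites were shared. How many groups without a shared site that share would give was not computed. Neighbours within a group had the same assignment in 120 of 368 pairs (32.6%), against 1088 of 3111 neighbour pairs (35.0%) in runs of 2 and 3.

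Groups were also built from the sites of each treatment by itself, so that the HA lists of the other treatment were not used to choose them. The +Myf6+F/R/C sites gave 40 groups with 173 of 14866 sites (1.16%), the largest of 6. The +Myf6 sites gave 24 groups with 100 of 12438 sites (0.804%), the largest of 5. Overlap between these groups was 7 of 40 (17.5%) and 7 of 24 (29.2%), and a background share for it was not computed. An overlap needs 4 or more neighbouring sites in the other treatment too, so it does not by itself compare the treatments. The separate sites recurred in the other treatment about as often as ungrouped sites did. Of the 173 +Myf6+F/R/C sites, 119 (68.8%, interval 61.3 to 75.6%) and 117 (67.6%, interval 60.1 to 74.5%) had a peak in +Myf6 HA replicates 1 and 2. The shares for ungrouped +Myf6+F/R/C sites were 66.6 and 66.0%. Of the 100 +Myf6 sites, 85 (85.0%, interval 76.5 to 91.4%) and 69 (69.0%, interval 59.0 to 77.9%) had a peak in +Myf6+F/R/C HA replicates 1 and 2, against 79.4 and 68.9% of ungrouped +Myf6 sites. All 4 of these background shares lie inside the intervals of the grouped sites.

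The H3K27me3 list played no part in choosing the sites, and it overlapped grouped sites somewhat less often than other sites. An H3K27me3 peak overlapped 129 of the 478 grouped sites (26.99%, interval 23.1 to 31.2%), against 6050 of the 19218 sites outside groups (31.5%, interval 30.8 to 32.1%). Over all Myf6 sites the share was 31.4%. By run size it was 31.9% for single sites, 30.6% for runs of 2, 29.9% for runs of 3, 29.4% for runs of 4 and 25.0% for runs of 5. For the 38 sites in runs of 6 or 7 it was 5 sites (13.2%, interval 4.41 to 28.1%), which rests on 6 groups. The mark was measured in 1 library, so the differences have no replicate check. Without +Myf6 HA replicate 1 the order turned, with 29.0% of grouped sites against 28.5% of the rest.

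**Figure D4:**
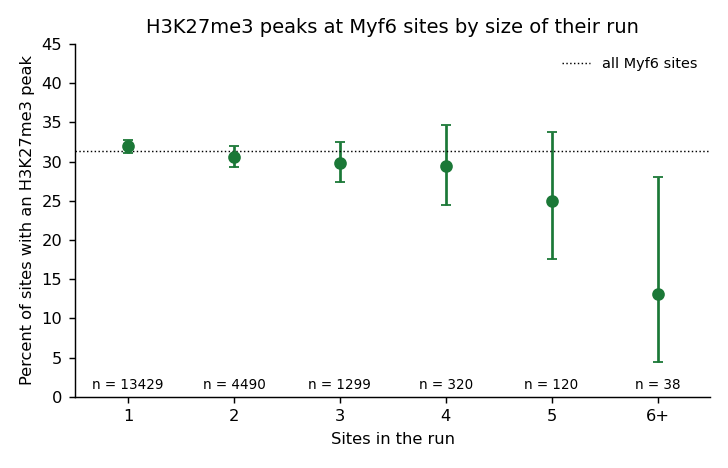
Percent of Myf6 sites that overlap an H3K27me3 peak, by the number of sites in their run, with exact 95% intervals (counting error only) as bars, the number of sites beside each point and the share over all sites (31.4%) as a dotted line. The share is 31.9% for single sites and 13.2% for the 38 sites in runs of 6 or 7, where the interval is widest.

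The mark was lowest at grouped sites of +Myf6 alone. There it overlapped 17 of 105 sites (16.2%, interval 9.72 to 24.7%), against 28.1% of such sites outside groups. It overlapped 51 of 176 grouped sites of +Myf6+F/R/C alone (29.0%, interval 22.4 to 36.3%), against 30.2% outside groups, and 61 of 197 grouped sites of both treatments (31.0%, interval 24.6 to 37.9%), against 34.8%. The H3K27me3 library came from +Myf6+F/R/C cells, and the mark in +Myf6 cells was not measured. Grouped sites with and without the mark had similar HA folds, with medians of 5.03 against 4.88 and 4.92 against 4.73 in the +Myf6+F/R/C libraries and of 4.90 against 4.98 and 5.05 against 5.02 in the +Myf6 libraries.

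Where the mark met a Myf6 site, its peak was smaller in runs than at single sites, inside and outside the groups. The strongest H3K27me3 peak at a marked site had a median fold of 4.94 at grouped sites, against 5.75 at the rest, and a median summit pileup of 11 against 16 fragments. Its median width was 407 against 604 bp. Runs of 3, outside the groups, had the same median pileup of 11 fragments and a median width of 410 bp, while single sites had 19 fragments and 681.5 bp. The H3K27me3 summit lay a median of 174 bp from the HA summits at grouped sites and 191 bp at the rest. Inside the group limits, 131 of 173 H3K27me3 peaks (75.7%) touched a grouped site and 27 touched no merged region at all. Of all H3K27me3 peaks, 6322 (19.7%) touched a Myf6 site, but the limits were drawn around sites, so the 2 shares are not alike.

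Marked sites were scattered over the groups. In 32 groups no site carried the mark, in 42 a single site did, in 24 there were 2, in 9 there were 3 and in 3 groups all 4 sites did. Of 368 neighbour pairs, 32 (8.70%) were both marked, against 396 of 3111 pairs (12.7%) in runs of 2 and 3. Among the 6 largest groups, those at chr7:67912807-67944466 and chr5:92634482-92654565 had the highest share, with 2 of 6 sites each, and the chromosome 12 group had 1 of 7. The other 3 had no marked site. One H3K27me3 peak in the chr5:92634482-92654565 group had a fold of 7.59 and a pileup of 76 fragments, far above the 8 to 17 fragments of the other 6 peaks in these groups.

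The 3 fully marked groups had 4 sites each. At chr6:114851034-114866443 the sites carried H3K27me3 folds of 6.75, 6.75, 5.80 and 3.64, the first pair sharing the same mark peak. The summit pileups of the mark were 20, 20, 10 and 6 fragments. At chr1:36472052-36484577 the folds were 3.69, 4.94, 8.88 and 8.88, with the last pair sharing a peak, and the pileups were 6, 9, 48 and 48 fragments. At chr13:64300001-64310948 the folds were 5.36, 3.07, 7.42 and 7.42, again with a shared last peak, and all 4 sites were of +Myf6+F/R/C alone. The limits of this last group also held a peak of +Myf6+F/R/C IgG replicate 2.

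H3K27me3 peaks joined by the same gap and minimum were grouped more often than Myf6 sites. They formed 1053 groups holding 5475 of 32130 peaks (17.0%), against 478 of 19696 Myf6 sites (2.43%). The largest mark group had 28 peaks, and 94 had more than 7, the size of the largest Myf6 group. The mark was deposited as narrow peaks, and whether broad stretches of it were split into several peaks was not tested. Median spans were close, at 22844 bp for Myf6 groups and 23374 bp for mark groups, and the longest were 50095 and 121249 bp. More members give more groups at a fixed gap, so the 19696 strongest H3K27me3 peaks were grouped too, a setting added after the data were seen. They gave 369 groups with 1859 peaks (9.44%). The Myf6 sites also had to pass a replicate and a control filter that the H3K27me3 list did not. Among single lists without these filters the difference was smaller, with 17.0% of H3K27me3 peaks grouped against 7.28 to 12.2% of induced HA peaks. For the 28012 strongest peaks of each list it was 15.2% against 5.53 to 7.28%.

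Some groups of the 2 kinds coincided. Of the 110 Myf6 groups, 10 (9.09%, interval 4.45 to 16.1%) overlapped an H3K27me3 group, which is 10 of 1053 mark groups (0.950%, interval 0.456 to 1.74%). All 10 were Myf6 groups of 4 or 5 sites. Among shorter runs, 542 of 13429 single sites (4.04%), 160 of 2245 runs of 2 (7.13%) and 56 of 433 runs of 3 (12.9%) met a mark group, and longer runs span more bases. The share of Myf6 groups was 37.8% at a gap limit of 25000 bp for both kinds and 21.5% at a minimum of 3. The one with 5, at chr3:95574847-95604155, met a mark group of 7 peaks and had 3 marked sites. Of the 1053 mark groups, 631 (59.9%) held at least 1 Myf6 site of any kind. Of the grouped Myf6 sites, 35 (7.32%, interval 5.15 to 10.0%) lay in an H3K27me3 group, against 964 (5.02%) of the rest and 5.07% of all sites. That share was 4.04% for single sites, 6.33% in runs of 2, 10.6% in runs of 3 and 10.0% in runs of 4. It was 2.50% in runs of 5, and 0 of 38 sites in runs of 6 or 7 (interval 0 to 9.25%).

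The same grouping was applied to all peaks of each library's own list, so that libraries could be compared. These lists also chose the Myf6 sites, so the shares add no independent support. In +Myf6+F/R/C HA libraries 12.2 and 7.47% of peaks lay in groups of 4 or more, against 7.28 and 8.48% in +Myf6 HA libraries. The means were 9.85 ± 3.37% and 7.88 ± 0.846% (SD, n = 2 each), a ratio of 1.25 (log2 0.32, exact permutation p = 0.667, two-sided; the smallest possible is 0.333). The ranges overlapped; replicate 1 gave a ratio of 1.68 and replicate 2 a ratio of 0.881. At an equal length of 28012 of the strongest peaks the shares were 6.60 and 5.97% in +Myf6+F/R/C and 7.28 and 5.53% in +Myf6 libraries.

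In the shorter lists much of the grouping lay at the start of chromosome 9. That stretch held 31 of 68 and 37 of 79 grouped peaks in the HA lists without doxycycline, and 21 to 37 of the 26 to 77 grouped peaks of each IgG list. The +Myf6 HA share of 7.88 ± 0.846% stood against 2.55 ± 0.907% without doxycycline (SD, n = 2 each), which were 3.19 and 1.91%. The ratio was 3.09 (log2 1.63), and the ranges did not overlap (exact permutation p = 0.333, two-sided, the smallest possible). At the length of the shortest of these lists, 2130 peaks, the direction turned, with 1.13 and 1.08% in +Myf6 libraries against 3.19 and 3.10% without doxycycline. At that length each +Myf6 list held 1 or 2 groups.

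Induced HA lists averaged 8.87 ± 2.31% and the IgG lists of the same nuclei 6.09 ± 5.40% (SD, n = 4 each). The log2 of the ratio was 0.54 (unpaired exact permutation p = 0.371, two-sided, the smallest possible being 0.0286). HA was higher in 3 of 4 pairs, and the paired fit gave a log2 ratio of 0.99 (exact p = 0.375, the smallest possible being 0.125). The IgG shares were 6.87 and 1.58% in +Myf6+F/R/C cells and 13.4 and 2.52% in +Myf6 cells, and each IgG list held 2 to 7 groups. Without +Myf6 IgG replicate 1 the log2 ratio was 1.28, and with the chromosome 9 stretch removed, a setting added after the data were seen, it was 1.92 (exact permutation p = 0.0286 for each). With a gap limit of 5000 bp it turned to -3.67, and with lists shortened to an equal 410 peaks to -1.80 (exact permutation p = 0.0286 for each). At that length each induced HA list held 1 group and the IgG lists held 2 to 6, so the share rests on few groups. The p-values of 0.0286 ignore the pairing of HA and IgG, and a paired test of 4 pairs cannot go below 0.125. The same lists chose the Myf6 sites, so these p-values add no independent support.

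**Figure D5:**
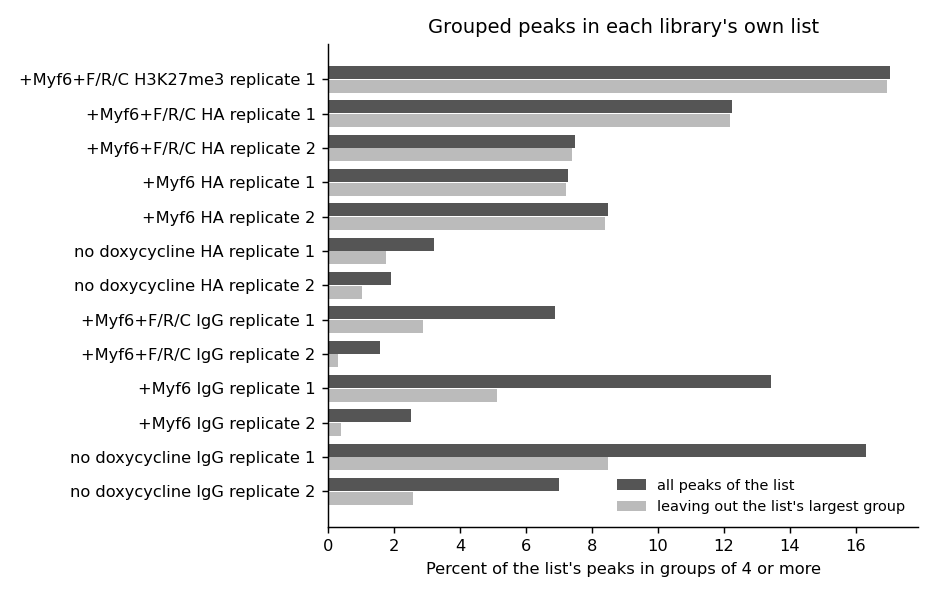
Percent of each library's peaks on chromosomes 1 to 19 that lie in groups of 4 or more, for all peaks (dark bars) and leaving out the list's largest group (light bars), with a pair of bars per library. IgG bars shrink when that group is left out (13.4% against 5.12% in +Myf6 IgG replicate 1), and the H3K27me3 bar stays the highest of all lists without it (17.0%).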

How the data were processed

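CUT&RUN of 13 libraries was deposited as narrow peak lists, 1 per library, so replicates were called separately. The submitters' processing notes name MACS2, deepTools, DiffBind and build GRCm39. For the versions and the aligner, these were not given in the sources used here. Every entry gives, as deposited by the authors, an interval with its summit, the fold enrichment there, an integer score and −log10 p and q. Grouped and other sites were compared by fold within each list. Folds of different lists were set side by side without adjustment for depth. Spike-in reads were not used.

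Lists were merged at an overlap of 1 bp and grouped with python 3.11.15, numpy 2.4.6, pandas 2.3.3 and scipy 1.17.1, after a check on simulated lists. Summit pileup k and expected pileup λ were recovered from fold = (k + 1)/(λ + 1) and from the Poisson tail, matching the deposited −log10 p within 0.002. A site's value in a list is that of its strongest peak. The H3K27me3 list was not merged with the others. Library shares were compared by exact permutation tests, two-sided. Per the labels' protocols, the HA and IgG reactions of a number share their nuclei, so they were pairs in the paired fit. The labels do not say whether replicates were separate cultures, so p-values may measure technical spread.

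Members and lists were chosen with earlier results of these data known. Regions named are the 10 groups with most sites and, among groups of 6 or more, those densest and with most and least H3K27me3; others were named after their values were seen. The gene annotation and promoter sequences at hand were of another build, so genes, E-boxes and sequences at these coordinates, and the gene lists drawn up for them, were not analysed here. Other gaps, minimums, overlaps, control sets and left-out libraries were tried.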

Additional observations from a re-analysis of the deposited data

How the results depend on the processing

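The number of groups follows the gap and the minimum. Against 110 groups, a gap limit of 5000 bp gave 3 and one of 25000 bp gave 553, a minimum of 3 sites gave 543 and one of 6 gave 6, and peaks with −log10 q of at least 5 gave 5. Control lists of IgG alone gave 204 groups and no control filter, added after the data were seen, gave 223. Leaving out each library in turn gave 110 to 794, and the number rose past 400 only where an induced HA library was left out, which leaves a treatment with a single list to pass. Those were 641 without +Myf6 HA replicate 1, 410 without its replicate 2, 476 without +Myf6+F/R/C HA replicate 1 and 794 without its replicate 2.

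The share of grouped sites with an H3K27me3 peak was 26.99%, against 31.5% of sites outside groups. It was 8.33% at a gap of 5000 bp (12 sites) and 13.2% at a minimum of 6, each against 31.4% outside groups. At −log10 q of at least 5 it was 10.0% against 22.4%, and without a control filter 32.8% against 34.9%. With a library left out it was 24.3 to 29.0%, against 26.0 to 32.6% outside groups. The share of Myf6 groups overlapping an H3K27me3 group (9.09%) was 0% at a gap of 5000 bp, at a minimum of 6 and at −log10 q of at least 5, 37.8% at a gap of 25000 bp and 21.5% at a minimum of 3, and 8.87 to 13.9% with a library left out. The mean share of grouped +Myf6 sites with a peak in the +Myf6+F/R/C lists (77.0%) was 93.8% at a gap of 5000 bp, and 47.5 to 85.0% with a library left out. It had no value at a minimum of 6 or at −log10 q of at least 5, where no group of +Myf6 sites was left.

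For library shares, the log2 ratio of +Myf6+F/R/C to +Myf6 HA (0.32) was -0.027 at equal list length, -0.077 to 0.63 with a library left out and 0.28 with the replicate block. That of +Myf6 HA to HA without doxycycline (1.63) was -2.58 at a gap of 5000 bp, -1.51 at equal list length and -1.99 at −log10 q of at least 5, 1.30 to 2.05 with a library left out and 1.67 with the replicate block. That of induced HA to IgG (0.54) was -3.67, -1.80 and -2.22 at the same settings, 2.35 at a gap of 25000 bp, 1.92 with the chromosome 9 stretch removed, 0.22 to 1.28 with a library left out and 0.99 with the replicate block (exact p = 0.375; the smallest possible is 0.125). The causes were not tested. HA replicates share only a number across treatments: the correlation of their replicate differences over regions was 0.11 between the induced treatments and 0.0016 between +Myf6 and no doxycycline. The E-box alternatives were not run. Depth limits which weak peaks enter a list, and the 4 induced HA lists differ in it.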

Other observations

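Chromosome X was outside the rule for choosing groups. By the same definition it held 273 Myf6 sites and 0 groups of 4 or more, and its longest run had 3 sites.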
